A study of Mus musculus with 8 samples.

Results

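The suppressors of cytokine signalling (SOCS) are inhibitors that feed back on the cytokine receptors that induce them. The genes Socs2, Socs3, Socs4 and Socs7 were described here in regulatory T cells of mouse pregnancy. They were chosen as the rows of the deposited value table whose platform annotation gave 1 of these 4 symbols, which took 4 of 6986 tested genes and 5 of 7358 probe sets with 1 gene. Socs2 (Entrez gene 216233) had 2 probe sets, and Socs3 (12702), Socs4 (67296) and Socs7 (192157) had 1 each. Socs1, Socs5, Socs6 and Cish, the other members of the family, were not analysed here.

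The cells were CD4+CD25+ lymphocytes, sorted by flow cytometry at day 9.5 post coitus from the para-aortic nodes that drain the uterus, and their RNA was measured on Affymetrix Mouse Gene 2.0 ST arrays. The comparison was between 4 arrays from IL10-/- mice, which carry a disrupted gene for the cytokine interleukin 10, and 4 arrays from IL10+/+ mice of strain C57BL/6. The mutants had been crossed back through the same C57BL/6 colony, and each array held RNA pooled from 2 to 4 mice. Per the labels, the IL10-/- mice drank oxytetracycline at 2 mg/ml and no antibiotic is named for the IL10+/+ mice, so antibiotic and genotype cannot be told apart. The sources used here do not give the mutated part of Il10, the age of the mice or the male that sired each pregnancy.

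A cytokine that binds its receptor activates Janus kinases (JAK), which phosphorylate the receptor and the STAT transcription factors. STAT factors switch on SOCS genes, and each SOCS protein has an SH2 domain that docks on phosphorylated tyrosine and a SOCS box that recruits elongins and the ubiquitin ligase scaffold cullin 5, so that the docked protein is degraded. SOCS3 also inhibits JAK directly, is induced through STAT3 by interleukin 6 and interleukin 10, and acts on the shared receptor gp130. SOCS2 is induced through STAT5, restrains growth hormone signalling and limits type 2 helper T cell responses. SOCS4 has been tied to the epidermal growth factor receptor, and SOCS7 to insulin receptor substrates and to adaptor proteins of the cytoskeleton.

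Promoter sequences from RefSeq (build GRCm38.p6) were matched for 2 of the 4 genes, Socs3 and Socs4, and are shown because STAT binding is the step that links a cytokine to its SOCS inhibitor. Each runs from 250 bases before the gene's start to 50 bases after it, 5′ to 3′ on the gene's strand, at chr11:117969317-117969616 (minus strand) for Socs3 and at chr14:47276670-47276969 (plus strand) for Socs4. Capitals mark matches to the STAT motif TTCNNNGAA, or to a second motif with 1 more free base N in its middle that STAT6 can use. Both read the same on either strand.
Socs3: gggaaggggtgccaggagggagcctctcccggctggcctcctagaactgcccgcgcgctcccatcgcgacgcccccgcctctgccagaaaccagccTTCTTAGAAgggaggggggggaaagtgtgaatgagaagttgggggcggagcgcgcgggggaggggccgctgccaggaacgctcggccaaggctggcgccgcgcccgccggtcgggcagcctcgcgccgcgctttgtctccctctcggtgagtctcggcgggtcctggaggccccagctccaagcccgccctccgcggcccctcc
Socs4: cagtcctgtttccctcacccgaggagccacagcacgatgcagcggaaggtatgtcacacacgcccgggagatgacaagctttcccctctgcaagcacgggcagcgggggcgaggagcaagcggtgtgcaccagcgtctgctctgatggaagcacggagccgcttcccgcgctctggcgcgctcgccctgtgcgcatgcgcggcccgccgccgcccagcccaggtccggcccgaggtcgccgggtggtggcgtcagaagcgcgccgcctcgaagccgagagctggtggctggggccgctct
The Socs3 window held 1 match to the first motif, TTCTTAGAA, which begins 154 bases before the start, and none to the second, while the Socs4 window held neither. Of all 32851 promoters of this length in the table, 8.30% held the first motif and 6.95% the second.

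How many cells of a pool were Foxp3+ was not measured, and in such bulk RNA fewer cells of a type and less RNA per cell cannot be told apart. Of 15 regulatory T cell markers 3 were measured, among them Ctla4, an inhibitory receptor, with a mean log2 value of 11.22 in IL10-/- and 11.32 in IL10+/+ arrays, and Ikzf2, which encodes Helios, with 11.35 and 11.54. Foxp3, Il2ra, Cd4 and Cd3e were not analysed here. The summed linear signal of each of 10 marker lists, for regulatory T cells, T cells and other cells of the node, overlapped between the groups. These lists held from 1 measured gene (dendritic cells) to 8 (B cells). Only 2.92% of all genes had groups without overlap, so this overlap does not show that the pools held the same cells. Array medians lay between 6.97 and 7.12, and IL10-/- replicate 2 and IL10+/+ replicate 4 stood apart on the first principal component, with scores of 16.6 and 17.8 against -13.3 to -2.72 in the other 6 arrays. Il10 itself gave a mean log2 value of 9.17 in IL10-/- and 8.10 in IL10+/+ arrays, and since the mutated part is unknown here, its probe set does not check the genotype labels.

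None of the 4 SOCS genes differed between the genotypes by limma's test over all genes. Socs3, Socs4 and Socs7 differed by 0.055, 0.057 and 0.047 on the log2 scale, which was less than the spread between arrays. Socs2 differed by 0.56 on one of its probe sets and by -0.046 on the other. Of the 4 genes, 0 passed at an adjusted p under 0.05, where 0.0286% of all genes did. At an unadjusted p under 0.05 by limma the count was also 0 of 4, against 4.78% of all genes, and an ordinary linear model per gene gave 0 of 4 as well. For 0 of 4 the groups did not overlap, against 2.92% of all genes.

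**Figure D1:**
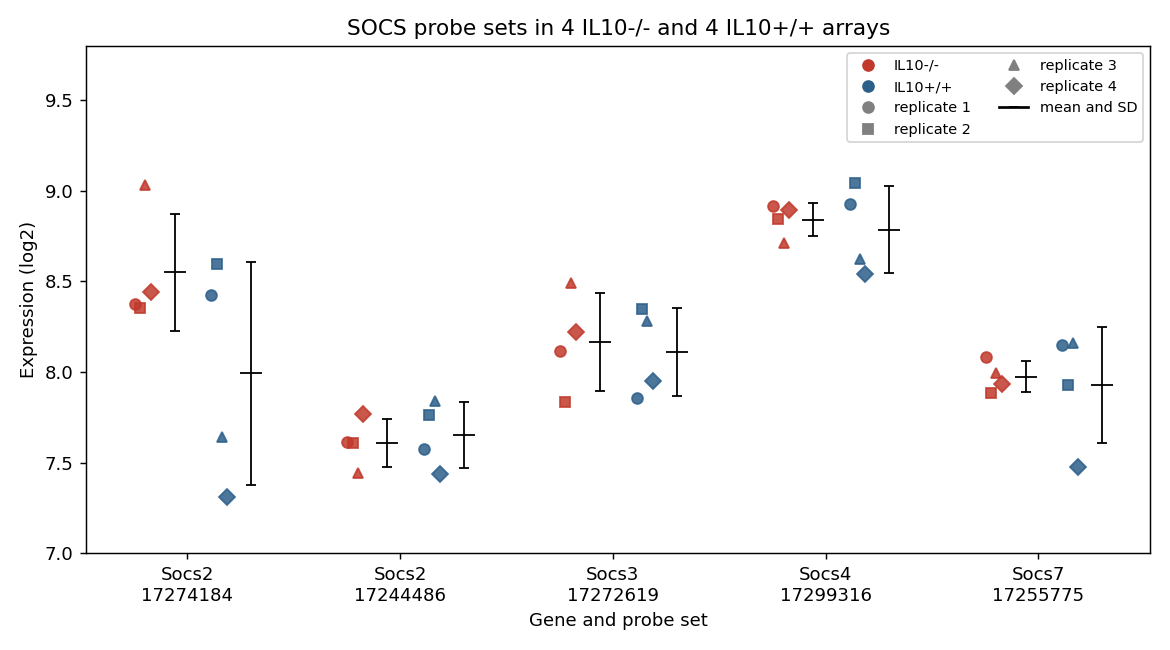
Log2 expression (vertical axis) of the 5 SOCS probe sets (horizontal axis) in each of 4 IL10-/- arrays (red) and 4 IL10+/+ arrays (blue), with symbols for the replicate numbers and black bars for mean and SD. The groups overlap for every probe set, and IL10+/+ replicate 4 (blue diamond) is the lowest array for all but Socs3.

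Socs2, the STAT5-induced member, was read by probe sets 17274184 and 17244486, and the first, with the higher mean over the 8 arrays, leads. On probe set 17274184 the IL10-/- arrays gave 8.37, 8.35, 9.03 and 8.44 (replicates 1 to 4, an order kept below), and the IL10+/+ arrays gave 8.42, 8.59, 7.64 and 7.31. All 4 IL10-/- arrays lay above the IL10+/+ mean, but the groups overlapped, since IL10+/+ replicates 1 and 2 lay among the IL10-/- values and only replicates 3 and 4 lay below them. The IL10-/- mean was 8.55 ± 0.32 and the IL10+/+ mean 7.99 ± 0.62 (SD, n = 4 each), and the log2 difference was 0.56 (SE 0.27, 95% confidence interval -0.049 to 1.16), or 1.47-fold. It did not pass (limma, unadjusted p = 0.0678, adjusted p = 0.999), and a two-sided exact permutation test gave p = 0.257, where the smallest p that 4 arrays against 4 can give is 0.0286. Without IL10+/+ replicate 4 the difference was 0.33, and without that array and IL10-/- replicate 2 together it was 0.40. With the mean of both Socs2 probe sets taken for the gene it was 0.26 (SE 0.16, limma, unadjusted p = 0.143).

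The other Socs2 probe set, 17244486, gave no such difference. Its IL10-/- arrays read 7.61, 7.61, 7.44 and 7.77, and its IL10+/+ arrays read 7.58, 7.76, 7.84 and 7.44. IL10-/- replicate 3, the highest of all arrays on probe set 17274184, was here next to the lowest. The IL10-/- mean was 7.61 ± 0.13 and the IL10+/+ mean 7.65 ± 0.18 (SD, n = 4 each), which differed by -0.046 (SE 0.12, 95% confidence interval -0.31 to 0.22; limma over all 7358 probe sets, adjusted p = 0.999; exact permutation p = 0.771). An IL10-/- level between 0.806 and 1.16 times that of IL10+/+ lies inside this interval.

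The probe sets also did not follow each other from array to array. Over the 8 arrays Pearson's r between them was -0.064 (exact permutation p = 0.880) and Spearman's rho 0.048 (exact permutation p = 0.935), and r was -0.54 without the 2 arrays farthest from the median of 17274184. The value of 17274184 minus that of 17244486 was 0.94 ± 0.44 in IL10-/- and 0.34 ± 0.58 in IL10+/+ arrays (SD, n = 4 each). This difference between probe sets did not differ beyond its spread between the genotypes (0.60; exact permutation p = 0.286, a test chosen after the values were seen).

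**Figure D2:**
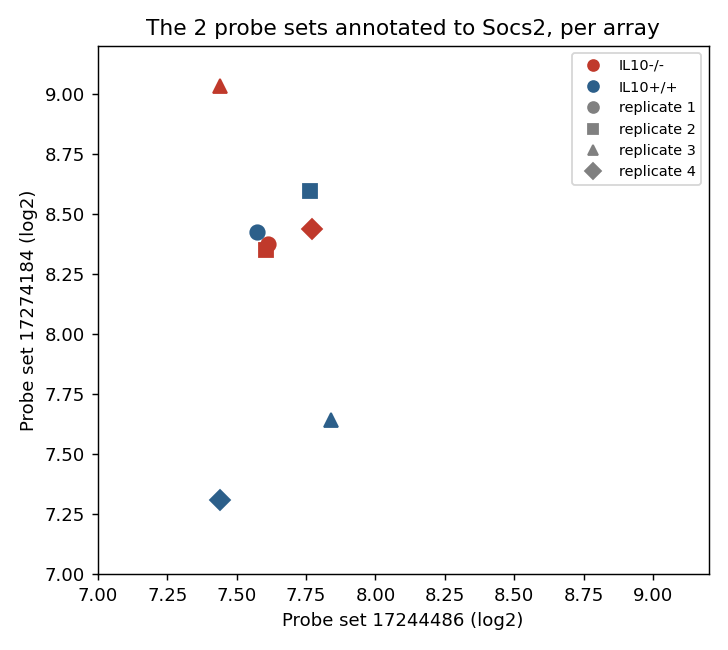
Log2 value of probe set 17274184 (vertical axis) against probe set 17244486 (horizontal axis), both annotated to Socs2, in each of the 8 arrays, coloured by genotype with symbols for replicates. IL10-/- replicate 3 is the highest array on the vertical axis at 9.03 and close to the lowest on the horizontal axis at 7.44.

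Their numbers place the probe sets in different surroundings. Probe sets on this array are numbered so that neighbours in number are mostly genes of one chromosome. Of 7310 probe sets with 1 gene and a known chromosome, 99.3% had most of their 20 nearest numbered neighbours on the chromosome of their own gene. Probe set 17244486 had 20 of 20 neighbours on chromosome 10, where Socs2 lies. Probe set 17274184 had 19 of 20 on chromosome 12, and was 1 of 52 probe sets whose neighbours were mostly of another chromosome than their gene. The probe sets of Socs3 and Socs7 (chromosome 11) and of Socs4 (chromosome 14) had 20 of 20 neighbours on their own chromosome. Where on the genome the probes of 17274184 match was not tested, so its naming as Socs2 rests on the platform annotation.

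Socs3, the STAT3-induced brake on gp130 receptors, had nearly equal means in both genotypes. The IL10-/- arrays read 8.12, 7.83, 8.49 and 8.22, and the IL10+/+ arrays read 7.86, 8.35, 8.28 and 7.95. Both the highest array (replicate 3) and the lowest (replicate 2) were IL10-/-, so the IL10+/+ values lay wholly inside the IL10-/- range. The IL10-/- mean was 8.17 ± 0.27 and the IL10+/+ mean 8.11 ± 0.24 (SD, n = 4 each), which differed by 0.055 (SE 0.16; limma, adjusted p = 0.999; exact permutation p = 0.771). The 95% confidence interval ran from -0.30 to 0.41, or from 0.813-fold to 1.33-fold. The sign turned without IL10-/- replicate 3 (-0.054) or IL10+/+ replicate 1 (-0.029).

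Socs4, the member tied to the epidermal growth factor receptor, varied little among the IL10-/- arrays. Its IL10-/- arrays read 8.91, 8.84, 8.71 and 8.90, inside the span of the IL10+/+ arrays at 8.93, 9.05, 8.63 and 8.54. The IL10-/- mean was 8.84 ± 0.091 and the IL10+/+ mean 8.78 ± 0.24 (SD, n = 4 each), which differed by 0.057 (SE 0.13, 95% confidence interval -0.22 to 0.34; limma, adjusted p = 0.999; exact permutation p = 0.686). This probe set had the narrowest interval of the 4 lead probe sets, from 0.856-fold to 1.27-fold. The sign turned without IL10+/+ replicate 4 (-0.024).

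Socs7, the member linked to insulin receptor substrates, had means that differed by less than the spread between arrays. The IL10-/- arrays read 8.08, 7.89, 7.99 and 7.94, and the IL10+/+ arrays read 8.15, 7.93, 8.16 and 7.48. IL10+/+ replicate 4 lay below every other array and the other 7 arrays lay within 7.89 to 8.16. The IL10-/- mean was 7.97 ± 0.085 and the IL10+/+ mean 7.93 ± 0.32 (SD, n = 4 each), which differed by 0.047 (SE 0.15, 95% confidence interval -0.28 to 0.38; limma, adjusted p = 0.999; exact permutation p = 0.886). Without IL10+/+ replicate 4 the difference was -0.10.

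**Figure D3:**
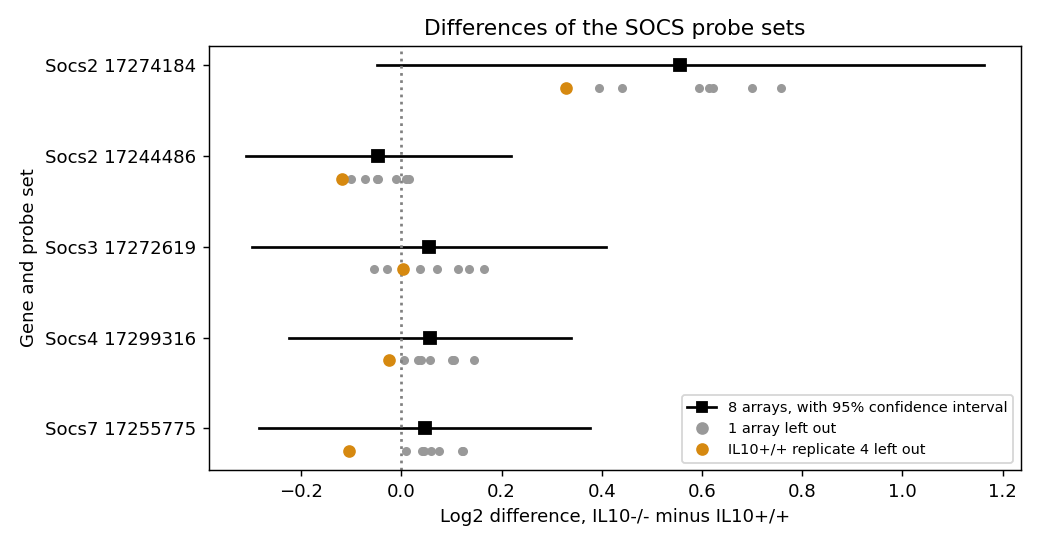
Log2 difference, IL10-/- minus IL10+/+ (horizontal axis), of the 5 SOCS probe sets (vertical axis) with its 95% confidence interval (black), and the difference of means with each array left out (grey; IL10+/+ replicate 4 left out in orange). Every interval includes 0, and leaving out IL10+/+ replicate 4 gives the lowest of the 8 leave-one-out values for each probe set but that of Socs3.

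IL10+/+ replicate 4 lay low across most SOCS probe sets. It was the lowest of the 8 arrays for 4 of 5 of them, both Socs2 probe sets included, and the lowest for 12.3% and the highest for 20.3% of all genes. That share covers dim genes too, while the SOCS probe sets lay between percentiles 55.8 and 82.0 of the arrays. The interquartile range of this array was 2.17, against 2.32 to 2.58 in the other IL10+/+ arrays and 2.15 in IL10-/- replicate 2. The share among genes of like signal was not computed. The 4 lead differences were all positive with all 8 arrays, with a median of 0.056, where 50.8% of all genes had a positive difference and their median was 0.0025. With IL10+/+ replicate 4 left out, Socs4 and Socs7 were negative and Socs3 was at 0.0027. The part of this array's other features in these values was not tested.

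The residual spread around the group means differed among the lead probe sets. For probe set 17274184 of Socs2 it was larger than in 97.8% of all genes, against 78.1% for Socs3, 71.3% for Socs7 and 49.2% for Socs4. In absolute size 1.25% of all genes differed as much as this Socs2 probe set or more, against 66.4% for Socs3, 65.1% for Socs4 and 71.3% for Socs7. Most genes thus differed by more than Socs3, Socs4 and Socs7 did. In every array all 5 SOCS probe sets read above the 95th percentile of 231 olfactory receptor probe sets, the receptors of smell, which lay between 6.96 and 7.26. No detection call was used, so this is a description of signal and not a test of expression.

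No pair of SOCS genes had a correlation past the test over the 8 pools. Of the 6 pairs, all with a positive Pearson's r, Socs2 (probe set 17274184) and Socs4 had the highest Pearson's r, 0.65 (exact permutation p = 0.0976, adjusted over the 6 pairs 0.512), with Spearman's rho 0.57 (exact permutation p = 0.151, adjusted 0.453). Without IL10+/+ replicates 3 and 4, the arrays farthest from the Socs2 median, r turned to -0.56, so its sign depended on those arrays. Socs2 and Socs3 had r = 0.41 (exact permutation p = 0.318, adjusted 0.512; rho 0.60, exact permutation p = 0.132, adjusted 0.453), and r = 0.80 without the same arrays. Socs7 had r = 0.46 with Socs2 (exact permutation p = 0.318, adjusted 0.512, rho 0.12) and 0.44 with Socs4 (exact permutation p = 0.341, adjusted 0.512, rho 0.17). With Socs3 it had r = 0.24 (exact permutation p = 0.618, adjusted 0.742, rho 0.24). Without the 2 arrays farthest from the median of the other gene, r was -0.081 with Socs2, 0.039 with Socs4 and 0.22 with Socs3. For Socs3 these arrays were IL10-/- replicates 2 and 3, so IL10+/+ replicate 4, the lowest for Socs7, was kept there. The pair of Socs3 and Socs4 had r = 0.0014 (exact permutation p = 0.996). All pairs share the same 8 arrays, among them IL10+/+ replicate 4, which was the lowest for Socs2, Socs4 and Socs7.

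The genes whose values followed each SOCS gene most closely were read off as a description, among 3144 named protein-coding genes with a mean above the median gene and by Pearson's r over the 8 arrays. Socs3 was followed by Tmem106c (r = 0.97), Tiprl (0.96) and Ankrd52 (0.96), and Socs7 by the folate carrier gene Slc19a1 (0.97), Sypl (0.95) and Krr1 (0.95). Socs4 was followed by Ap3m1, a subunit of the AP-3 vesicle adaptor (0.96), Lin52 (0.94) and the mitochondrial tRNA synthetase gene Fars2 (0.93). Probe set 17274184 of Socs2 was followed by Actr6 (0.95), the ribosomal protein gene Rps7 (0.94) and Isca2 (0.92). Probe set 17244486 was followed by the cleavage factor gene Cpsf6 (0.95), Brox (0.91) and Gosr1 (0.90). How high the top r among 3144 genes lies by chance was not computed. All these points share the same 8 arrays, the 2 that stood apart included.

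The surrounding JAK-STAT pathway was measured in part, and 0 of its genes passed limma's test over all genes or the ordinary linear model. Among the cytokines that signal through JAK and STAT, 19 of 40 were measured, 10 with a positive and 9 with a negative difference and a median of 0.017. Of these 19, 2 had an unadjusted p under 0.05, where 4.78% of all genes did, namely Il10 and Ifng, which encodes interferon gamma. Ifng read 8.08, 7.84, 7.64 and 7.78 in IL10-/- arrays and 7.37, 7.35, 7.30 and 7.33 in IL10+/+ arrays. The groups did not overlap, and the difference was 0.50 (SE 0.11; limma, adjusted p = 0.406). Il24, an interleukin 10 family cytokine, followed at 0.26 (SE 0.13). Its group means (6.39 and 6.13) lay below the percentile of olfactory receptor probe sets used above (6.96 to 7.26 over the arrays). So did those of Il3, Il4, Il5, Il9, Il12b, Il19, Il20, Il22, Il23a, Csf3, Gh and Prl. The group means of Il10, Ifng, Lif, Osm and Csf2 lay above it, and Il13 had means of 7.17 and 7.38. The counts of positive and negative differences thus include dim genes.

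Of 44 receptors 14 were measured, with 5 positive and 9 negative differences and a median of -0.035, and 0 had an unadjusted p under 0.05. Il6st, which encodes gp130, the receptor chain on which SOCS3 docks, read 11.54, 11.12, 11.37 and 11.49 in IL10-/- arrays and 11.57, 11.61, 11.56 and 11.43 in IL10+/+ arrays. The difference was -0.16 (SE 0.11), with overlap between the groups. Il2rb, the interleukin 2 receptor chain that activates STAT5, differed by -0.17 (SE 0.24), and by 0.095 without IL10-/- replicate 2. Il7r, the interleukin 7 receptor chain, differed by -0.12 (SE 0.11).

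Of the 11 JAK and STAT genes 6 were measured, all STAT factors, 1 positive and 5 negative with a median of -0.066, and 0 had an unadjusted p under 0.05. Stat3, the factor that induces Socs3, measured 9.88 ± 0.080 in IL10-/- and 9.98 ± 0.17 in IL10+/+ arrays (SD, n = 4 each), a difference of -0.10 (SE 0.11). The widest differences were those of Stat2 (-0.28, SE 0.28, with -0.078 without IL10-/- replicate 2, -0.14 and -0.13 without IL10+/+ replicates 2 and 3, and -0.55 without IL10+/+ replicate 4) and of Stat6, the factor of interleukin 4 signalling (-0.22, SE 0.16, and -0.064 without IL10-/- replicate 2). Stat5a and Stat5b, the factors that induce Socs2, differed by -0.013 (SE 0.13) and -0.031 (SE 0.17), named here for that role after their values were seen.

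Of 15 other inhibitors of the pathway 2 were measured, the STAT inhibitor gene Pias4 at 0.13 (SE 0.13) and the phosphatase gene Ptprc at -0.092 (SE 0.092). Of 9 partners of the SOCS box ligase 3 were measured, all with a positive difference and a median of 0.11. Eloc, which encodes elongin C, the direct partner of the SOCS box, read 10.45, 9.83, 10.24 and 10.24 in IL10-/- arrays and 8.95, 9.91, 10.77 and 9.53 in IL10+/+ arrays. The difference of 0.40 (SE 0.31) lay within that spread, since the IL10+/+ arrays held both the lowest and the highest value. It was 0.12 without IL10+/+ replicate 1, the lowest array, and 0.73 without IL10+/+ replicate 3, the highest (limma, unadjusted p = 0.00894, adjusted p = 0.9998). Nedd8, the ubiquitin-like modifier that activates cullins, differed by 0.11 (SE 0.097), and its conjugating enzyme gene Ube2f by 0.018 (SE 0.10), which turned negative with arrays centred on their medians. None of these 5 genes had an unadjusted p under 0.05.

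Other proteins with a SOCS box differed in both directions. Of 28 genes 9 were measured, 4 positive and 5 negative with a median of -0.016, and 0 had an unadjusted p under 0.05. Asb1, an ankyrin repeat protein with a SOCS box, differed by 0.23 (SE 0.12), Asb18 by 0.11 (SE 0.11) and Wsb1, a WD repeat protein with a SOCS box, by -0.25 (SE 0.20). Wsb1 was at -0.081 without IL10+/+ replicate 2, and Asb1 at 0.13 without IL10+/+ replicate 1. The group means of Asb1 (7.09 and 6.87) and Asb18 (6.95 and 6.85) lay within or below the olfactory receptor percentile (6.96 to 7.26 over the arrays). Those of Wsb1 (9.38 and 9.63) lay above it.

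Known target genes of STAT5 and STAT3 gave medians on opposite sides of 0, without a gene past the threshold. The lists share Myc, and the contrast between them was not tested. Of 18 STAT5 targets 6 were measured, 5 negative, with a median of -0.16. The survival gene Bcl2 did not overlap between the groups and was lower in IL10-/- by limma at an unadjusted p of 0.0401 (adjusted p = 0.999). Its difference was -0.24 (SE 0.10), and -0.070 by its dimmer probe set. The granzyme gene Gzmb lay on the other side at 1.30 (SE 0.50) by limma at an unadjusted p of 0.0252 (adjusted p = 0.873). Its groups overlapped, and IL10+/+ replicate 2 was the highest of all arrays at 9.88. The growth factor gene Igf1 differed by -0.21 (SE 0.11), with means of 6.71 and 6.92 below the 95th percentile of the olfactory receptor probe sets. Of 22 STAT3 targets 9 were measured, 6 positive, with a median of 0.13. The cytokine gene Il17a differed by 0.57 (SE 0.21; limma, unadjusted p = 0.0213, adjusted p = 0.873), and by 0.37 without IL10+/+ replicate 3. Its groups overlapped. Il17f differed by 0.25 (SE 0.19) and Hif1a, which encodes the hypoxia factor HIF-1α, by 0.22 (SE 0.10). The group means of Il17a (7.39 and 6.82) and Il17f (7.33 and 7.08) lay near the 95th percentile of the olfactory receptor probe sets (6.96 to 7.26 over the arrays). Over all genes the median was 0.0025, and the quartiles lay at -0.082 and 0.092.

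**Figure D4:**
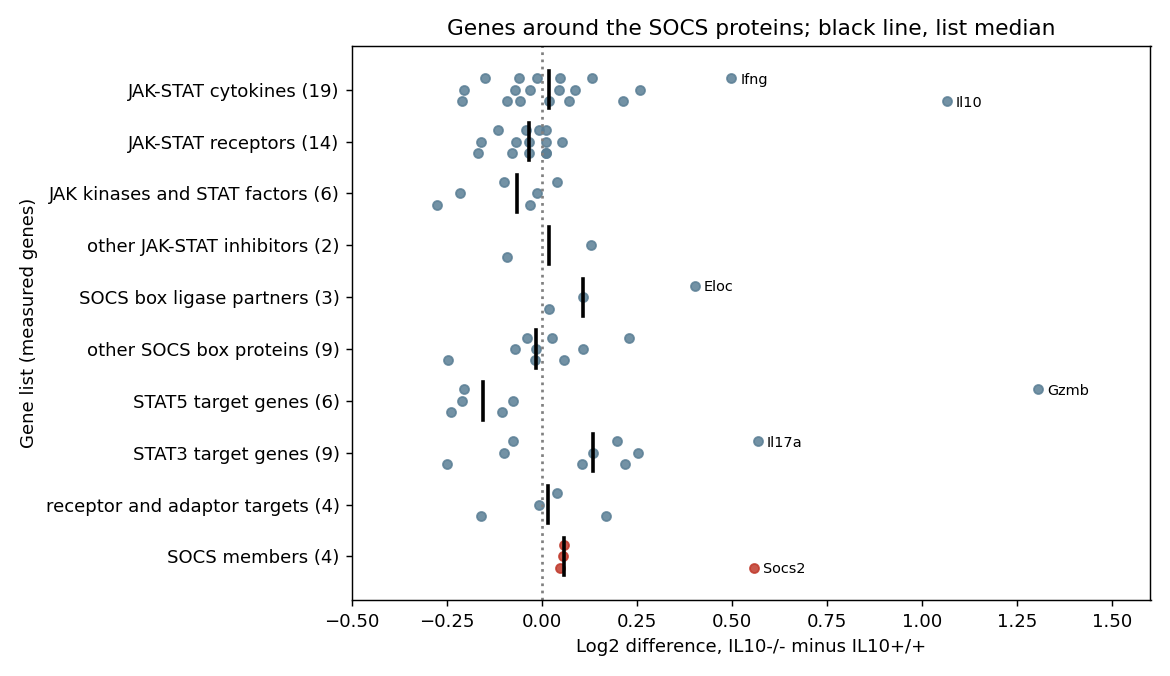
Log2 difference, IL10-/- minus IL10+/+ (horizontal axis), of each measured gene in 9 lists around the SOCS proteins and of the 4 SOCS genes (vertical axis, with the number of measured genes), black lines marking list medians and names given for differences of 0.4 or more. The list medians lie between -0.16 and 0.13. Socs2 is drawn by probe set 17274184 at 0.56, with a 95% confidence interval of -0.049 to 1.16. Its other probe set, not drawn, gave -0.046.

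Receptors and adaptors on which the 4 SOCS proteins act were measured for 4 of 15 genes, with a median of 0.015. It ranged from -0.16 to 0.074 over the alternatives, where -0.16 was the value of Il6st alone, the only gene of this list kept by the filter on dim probe sets. Irs1, an insulin receptor substrate, differed by 0.17 (SE 0.12), and by 0.025 on its other probe set, and Egfr, the epidermal growth factor receptor gene, by 0.039 (SE 0.12), which was -0.047 with array weights. Ghr, the growth hormone receptor gene on which SOCS2 acts, had means of 5.57 and 5.58 in the groups, and was named for its role after its values were seen. The group means of Irs1 (5.95 and 5.79), Egfr (6.37 and 6.33) and Ghr, 3 of the 4 genes, lay below the 95th percentile of the olfactory receptor probe sets. Markers of other cells in the gate were set beside these values. The 8 measured of 16 B cell markers were all positive with a median of 0.14, where 50.8% of all genes were positive. Other marker lists also lay on 1 side. The 3 measured regulatory T cell markers were all negative (median -0.11), as were the 6 of stroma and endothelium (median -0.091). The summed linear signal of the B cell markers ran from 4654 to 7195 in IL10-/- and from 4768 to 6362 in IL10+/+ arrays. This sum rests mainly on Ighm, with log2 means of 12.13 and 11.97, against 9.32 and 9.18 for Ralgps2, the next brightest. Ighm differed by 0.16 on its lead probe set and by 0.20 to 3.33 on its others, all with an adjusted p by limma above 0.05. The part of the B cell markers in the SOCS values was not tested.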

How the data were processed

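Per the series' design text, the authors corrected background by RMA in Partek Genomics Suite, then corrected for GC content and took the mean of a probe set's probes, and deposited log2 values. Affymetrix Expression Console is named too, per the submitters' processing notes. The sources used here give no versions and no genome build. These values of 16378 probe sets in 8 arrays were used as given. Symbols of the 7358 probe sets with 1 gene were updated through Entrez identifiers to RefSeq (GRCm38.p6), where 7310 matched, 456 probe sets with several genes and 8564 without a listed gene were left out, and for the 284 genes with several probe sets the one of highest mean led. This gave 6986 genes without a filter on signal, 99.6% of the 6943 placed ones on chromosomes 1 and 10 to 15.

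Groups were compared with limma 3.58.1 (lmFit, eBayes) in R 4.3.3, as IL10-/- minus IL10+/+, with p-values adjusted by Benjamini-Hochberg over all genes at a threshold of 0.05. The fit was tested on simulated data. Exact two-sided permutation tests used scipy 1.17.1. The number of arrays, 4 per group, limits the precision. The 4 genes and the gene lists were chosen with earlier results of these data known. Beside the SOCS genes, the text names up to 3 genes per pathway list with the smallest p. It also names 2 regulatory T cell and 2 B cell markers of highest mean, 3 genes per SOCS gene of highest correlation, and Il10. Others are marked as chosen later. Alternatives were other normalizations, a filter, other uses of probe sets, other variance models, the replicate number as a block, and arrays left out. Arrays of the same replicate number did not deviate together (r of deviations between -0.32 and 0.05 over 4 numbers), so the numbers were not taken as pairs.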

Additional observations from a re-analysis of the deposited data

Results flagged for a closer look

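Within groups of 4 arrays, 1 array was far from the other 3 in 6 of 60 groups examined (30 probe sets and genes), where chance gives about 1 in 20. Probe set 17274184 of Socs2 read 9.03 in IL10-/- replicate 3, against 8.35 to 8.44 in the other IL10-/- arrays. IL10-/- replicate 2 was low for Il2rb (10.22, against 11.24 to 11.34) and for Stat6 (9.08, against 9.68 to 9.70). Asb1 read 6.98 in IL10-/- replicate 1, against 7.12 to 7.15. Hif1a read 11.04 in IL10-/- replicate 3, against 11.12 in each of the other IL10-/- arrays. Asb18 read 7.02 in IL10+/+ replicate 4, against 6.76 to 6.80.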

How the results depend on the processing

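No SOCS gene passed the threshold under any of 18 other settings (limma or the ordinary linear model, 0 of 4 in each). Socs2 had an unadjusted p under 0.05 under array weights and without IL10+/+ replicate 1 or 2, with a smallest adjusted p of 0.614. Leaving out each array in turn gave a range of 0.33 to 0.76 for Socs2, -0.054 to 0.17 for Socs3, -0.024 to 0.14 for Socs4 and -0.10 to 0.12 for Socs7. With the mean of its probe sets Socs2 was at 0.26. Without both arrays that stood apart, Socs4 and Socs7 turned to -0.025 and -0.074. With the Socs2 probe set whose numbered neighbours lie on its chromosome, chosen after seeing the data, Socs2 was at -0.046. Over all genes 2 passed, Ctse and Efcab2, against 1 (Ctse) with arrays centred on the median, with array weights, by the ordinary linear model and without both arrays that stood apart, and 1 to 4 with single arrays left out. With the replicate number as a block 1 gene passed (Ctse), no SOCS call changed, and the numbers did not pair the samples. Leaving out single arrays gave ranges of -0.30 to 0.095 for Il2rb, -0.040 to 0.075 for Ube2f and -0.056 to 0.093 for Egfr. Ube2f was also negative with centred arrays (-0.0043) and without both arrays (-0.011), and Egfr with array weights (-0.047) and without both (-0.11). The cause of these turns was not tested. Of 162 medians of pathway lists under alternatives 156 moved by less than 1 SD between arrays. Il24, Asb1, Asb18, Igf1, Irs1, Egfr and Ghr gave no value under the filter on dim probe sets, which removed them.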
